A study of Mus musculus with 2 samples.

Results

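Capicua, the transcriptional repressor encoded by *Cic*, was examined together with 5 partners at the RNA level in hippocampal Cajal-Retzius (CR) cells. The 6 genes were *Cic*, *Atxn1*, *Atxn1l*, *Sin3a*, *Hdac1* and *Hdac2*, picked by symbol from the 32285 genes of the deposited count matrices, and all 6 were present. CR cells were sorted as DAPI-negative, tdTomato-positive cells from the hippocampus at postnatal day 14 (P14) and sequenced with a 3′ single-cell chemistry. For the control library the cells of 4 mice (3 males, 1 female) of the genotype *ΔNp73-Cre; Cic flox/+; tdT* were pooled. For the knockout library the cells of 4 littermates (2 males, 2 females) of the genotype *ΔNp73-Cre; Cic flox/flox; tdT* were pooled. Both groups therefore carried the Cre driver, the tdTomato reporter and at least 1 floxed *Cic* allele, and Cre could recombine 1 allele in the control. Cre in this line is driven from the *ΔNp73* locus, and the study's own staining found that CIC protein was not lost from every CR cell. With 1 library per genotype there was no replicate and no test between genotypes. Every interval below is an exact 95% interval that covers counting error only.

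Capicua is an HMG-box protein that binds short octamers related to TGAATGAA and keeps nearby genes silent. It is bound and stabilized by ataxin-1 (*Atxn1*) and its paralog ataxin-1-like (*Atxn1l*), and it recruits the SIN3 scaffold (*Sin3a*), which carries the class I histone deacetylases HDAC1 and HDAC2. Signalling through RAS and MAPK relieves the repression, and the ETS factors *Etv4* and *Etv5* are among its best known targets. CR cells are early-born, reelin-secreting neurons, most of which disappear in the first postnatal weeks.

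*Cic* lies on chr7:25267704-25294159 (GRCm38, plus strand) and has 2 main starts. The long form (Cic-212) starts at 25267704 and the short form (Cic-201 and Cic-202) at 25282179, while their ends fall within 25294145 to 25294159. A 3′ UMI, the tag that marks a single captured RNA molecule, therefore could not tell the long from the short form. The sources used here do not give the exons between the loxP sites, so *Cic* UMIs do not check the deletion. The sequence upstream of both *Cic* starts, and of the *Sin3a* start that holds a capicua octamer, is given to show the promoters of the repressor and of its scaffold. These are the 250 bases before each RefSeq start on the plus strand (GRCm38.p6), 5′ to 3′, with the octamer in capitals. The RefSeq start of the long form lies 5 bases before the GENCODE start given above.
*Cic* long form, chr7:25267449-25267698: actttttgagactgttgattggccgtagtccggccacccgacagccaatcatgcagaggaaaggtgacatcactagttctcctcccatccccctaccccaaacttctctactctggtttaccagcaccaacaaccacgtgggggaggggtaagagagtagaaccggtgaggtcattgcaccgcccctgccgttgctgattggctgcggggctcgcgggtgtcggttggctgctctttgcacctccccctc
*Cic* short form, chr7:25281929-25282178: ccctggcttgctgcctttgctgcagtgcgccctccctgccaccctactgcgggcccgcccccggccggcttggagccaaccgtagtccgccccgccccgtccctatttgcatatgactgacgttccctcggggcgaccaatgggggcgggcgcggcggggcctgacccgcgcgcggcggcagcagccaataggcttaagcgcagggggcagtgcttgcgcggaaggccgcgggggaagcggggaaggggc
*Sin3a*, chr9:57071790-57072039: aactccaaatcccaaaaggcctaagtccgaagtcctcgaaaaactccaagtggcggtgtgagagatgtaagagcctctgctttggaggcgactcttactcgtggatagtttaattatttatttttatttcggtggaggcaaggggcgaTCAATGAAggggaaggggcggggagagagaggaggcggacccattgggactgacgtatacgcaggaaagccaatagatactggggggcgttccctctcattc
The *Cic* long-form promoter had a GC content of 58% with 11 CpG sites, and the short-form promoter 73.2% with 27 CpG sites. The *Sin3a* promoter had 50.8% and 12 CpG sites. The octamers were searched on both strands (TGAATGAA, TGAATGGA, TCAATGAA and TCAATGGA) in windows from 250 bases before to 50 bases after each start. Of 32851 windows, 1260 (3.84%) held at least 1 of them. Promoter entries were found for 4 of the 6 genes (*Cic*, *Atxn1l*, *Sin3a* and *Hdac2*), with 6 windows in all. Only the *Sin3a* window shown held a match, TCAATGAA, whose first base lay 102 bases before the start. Neither *Cic* window held any of these words. Among commonly listed capicua targets, 5 of the 14 windows held one (35.7%), those of *Spry2*, *Spred3*, *Dusp6*, *Ptpn9* and *Maff*. A match is a description of the letters and not a site of binding.

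CR cells were taken as barcodes with at least 2000 UMIs of which at least 5 were *Reln*, the gene of reelin. This left 1003 of 1011 control and 390 of 406 knockout barcodes, and no cell barcode was shared between the libraries. The control cells held 6981296 UMIs (median 6224 per cell) and the knockout cells 2937321 (median 6664). All 10 CR markers were detected in at least 25% of cells in each library. The summed level of 9 GABAergic neuron markers was 1.06 CPM in control and 0.723 CPM in knockout cells, against 15322 and 14880 CPM for the CR markers. It was the lowest of 10 lists of other cell types. The highest were 5 endothelial or mural markers, at 115.7 and 105.2 CPM, and 4 oligodendrocyte precursor markers, at 60.6 and 78.5 CPM, each with 1 marker in at least 25% of cells in both libraries. The part of such cells in the ratios below was not tested. Levels are given as CPM, the UMIs of a gene per 1000000 UMIs outside mitochondrial and ribosomal protein genes. Barcodes with 20 to 100 UMIs (29040 control and 75813 knockout, called droplets here) served as the background of RNA outside cells. The droplets also held the CR markers, at 5723 CPM in control and 6238 CPM in knockout, so they were not free of CR cell RNA. Each list of other cell types with at least 50 UMIs in droplets gave an upper bound for the droplet RNA in cells. The lowest bound came from markers of ependymal and choroid cells, at 6.34% of control and 2.83% of knockout UMIs. It rested on 29 UMIs of these markers in control cells and 15 in knockout cells.

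*Cic* RNA was detected in CR cells of both genotypes at a similar level. It had 389 UMIs in control cells, 58.9 CPM (53.2 to 65.1), and 142 UMIs in knockout cells, 51.3 CPM (43.2 to 60.5). The knockout over control ratio was 0.871 (0.714 to 1.06), so a difference over all cells was not detectable at this depth. The interval covers counting error between these libraries only and does not bound a loss between the genotypes. At least 1 *Cic* UMI was seen in 296 of 1003 control cells (29.5%, 26.7 to 32.4) and in 105 of 390 knockout cells (26.9%, 22.6 to 31.6). After every cell was reduced to 2000 UMIs, these shares averaged 9.89% and 8.75% over all possible draws. Most positive cells held a single UMI, 228 control cells and 80 knockout cells, and the most in 1 cell was 5 and 8 UMIs. *Cic* was lower in CPM in cells than in droplets of the same library. Control droplets held 102.3 CPM and knockout droplets 76.0 CPM, and the cell over droplet ratios were 0.576 (0.487 to 0.682) and 0.675 (0.544 to 0.836). Between the libraries the knockout over control ratio in droplets was 0.743 (0.615 to 0.897). A share of 0.740% of control droplets (median 89 UMIs) and 0.289% of knockout droplets (median 44 UMIs) held a *Cic* UMI. No cell type was available that should lack *Cic*, so its level in cells cannot be set against such a background.

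The ataxin-1 genes, whose products hold capicua in a complex, differed in how far they stood above the droplets. *Atxn1* (chr13:45549755-45965008, minus strand) had 2011 UMIs in control cells, 304.6 CPM (291.4 to 318.2), and 870 in knockout cells, 314.5 CPM (294.0 to 336.2). The ratio between genotypes was 1.03 (0.953 to 1.12). *Atxn1* was 5.93 times (4.90 to 7.23) the droplet level in control cells and 5.90 times (4.98 to 7.02) in knockout cells, so its UMIs went with the CR cells in both libraries. It was detected in 643 control cells (64.1%) and 269 knockout cells (69.0%), with up to 27 and 13 UMIs in a cell. Reduced to 2000 UMIs, 37.3% of control and 39.9% of knockout cells held an *Atxn1* UMI on average over all draws. In the annotation, 3 genes on the other strand overlap *Atxn1* (*Gmpr*, Gm47460 and 4930453C13Rik). On the strand of *Atxn1* itself 0 other genes of the matrices overlap it. The strand counted is not given in the sources used here, and whether reads of the other strand were counted was not checked. *Atxn1l* (chr8:109726451-109737739, minus strand) was sparse, with 158 UMIs in control cells, 23.9 CPM (20.3 to 28.0), and 61 in knockout cells, 22.1 CPM (16.9 to 28.3). Its ratio was 0.921 (0.674 to 1.25). *Atxn1l* in cells was 0.841 (0.623 to 1.15) of the control droplet level and 0.626 (0.450 to 0.866) of the knockout droplet level.

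*Sin3a* (chr9:57072040-57128366, plus strand), the scaffold that joins repressors to histone deacetylases, had 306 UMIs in control cells, 46.4 CPM (41.3 to 51.8), and 105 in knockout cells, 38.0 CPM (31.0 to 46.0). The ratio was 0.819 (0.650 to 1.03). A single annotated gene on the other strand, *Man2c1os*, overlaps *Sin3a*. *Sin3a* stood at 1.07 (0.850 to 1.37) of the droplet level in control cells and 0.739 (0.572 to 0.953) in knockout cells.

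The class I deacetylase genes were the members with the highest ratios between the genotypes. *Hdac1* (chr4:129516104-129542713, minus strand) had 212 UMIs in control cells, 32.1 CPM (27.9 to 36.7), and 131 in knockout cells, 47.4 CPM (39.6 to 56.2). The knockout level was 1.47 times the control level (1.18 to 1.84). *Hdac2* (chr10:36974544-37001889, plus strand) had 326 UMIs in control cells, 49.4 CPM (44.2 to 55.0), and 183 in knockout cells, 66.2 CPM (56.9 to 76.5), a ratio of 1.34 (1.11 to 1.61). The counting intervals of the genotypes did not overlap for either gene, and the share of all genes for which this holds is not given here. The spread between animals or libraries was not measured, so these values compare the libraries and not the genotypes. At least 1 UMI of *Hdac1* or *Hdac2* was present in 36.3% of control cells (33.3 to 39.4) and 48.2% of knockout cells (43.1 to 53.3), at median depths of 6224 and 6664 UMIs. Reduced to 2000 UMIs, *Hdac1* was seen in 5.83% of control and 8.38% of knockout cells, on average over all draws. *Hdac2* was seen in 8.18% and 11.2%. In 1 such draw the variance of *Hdac2* UMIs over cells was 1.06 times the mean in control and 1.56 times in knockout cells. For *Hdac1* it was 1.00 and 1.08 times. Knockout *Hdac2* thus varied more over cells than its counting interval covers, and an interval with that spread was not computed. In droplets, *Hdac1* was also higher in the knockout library, at 67.1 against 51.9 CPM, a ratio of 1.29 (1.02 to 1.64), while *Hdac2* was at 95.4 against 103.3 CPM, a ratio of 0.924 (0.774 to 1.10). Both genes were lower in CPM in cells than in droplets, with ratios from 0.478 to 0.706 over the 2 libraries. Taking off droplet RNA at the shares given above gave ratios of 1.58 for *Hdac1* and 1.48 for *Hdac2*. Those shares are upper bounds, and the larger one is that of the control.

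**Figure D1:**
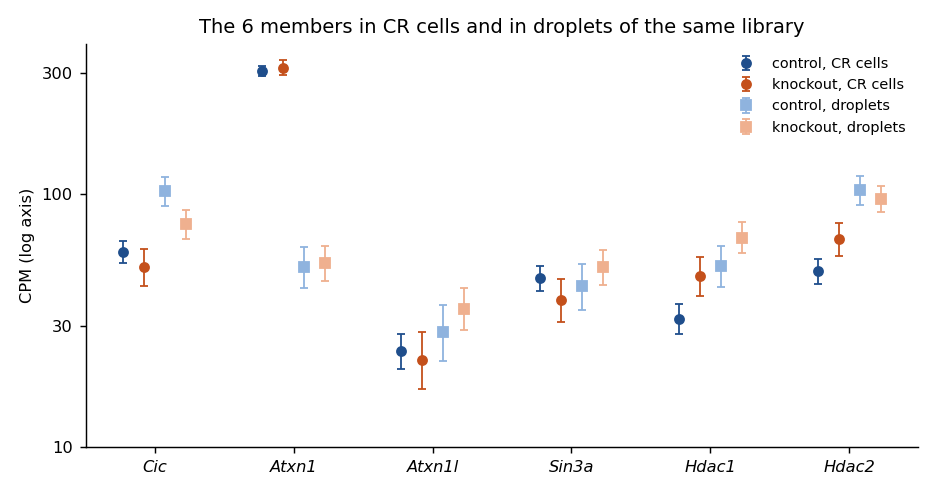
Level of each member in CPM (log axis) in CR cells (circles) and in droplets of 20 to 100 UMIs (squares) of the control and knockout libraries. Bars are exact 95% Poisson intervals for counting error. *Atxn1* lies near 300 CPM in cells and near 50 CPM in droplets, whereas *Cic*, *Hdac1* and *Hdac2* lie below the droplets of their library.

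A gene was called when its ratio was at least 1.5 or at most 1 over 1.5, among the 9442 genes with at least 100 UMIs over the groups compared. In the knockout over control comparison 2.73% of these genes were called higher and 1.66% lower, and 0 of the 6 members were called in either direction. The median ratio was 1.00 over all genes, with 0.758 and 1.39 as the 5th and 95th percentiles, and 0.977 over the members. *Hdac1*, at 1.47, lay just under the threshold, and 3.12% of the genes had a higher ratio. For *Hdac2* 6.49% of the genes were higher, and for *Sin3a*, the lowest member, 89.4% were higher. *Hdac1* passed 1.5 under 5 of the 15 alternatives tried. Among them were taking off free RNA at the upper bounds and requiring at least 20 *Reln* UMIs (1.51). Another was leaving out cells rich in respiratory chain UMIs (1.62). *Hdac2* passed it under 1 of 15, the mean over cells in place of the sum (1.52). That mean gives each cell the same weight, and 1 knockout cell of under 5000 UMIs held 9 *Hdac2* UMIs. The mean without that cell was not computed. From the sum, leaving out the cell with the most *Hdac2* UMIs in each group gave 1.29.

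The pools held different numbers of males and females, so the ratios were repeated within cells assigned to a sex by UMIs of *Xist* or of 4 Y-linked genes. There were 227 female and 702 male control cells and 176 female and 194 male knockout cells. *Hdac1* was at 1.39 (0.95 to 2.04) in female and 1.34 (0.971 to 1.82) in male cells, both with intervals that reach 1. *Hdac2* was at 58.5 CPM in female control and 58.8 CPM in female knockout cells, a ratio of 1.00 (0.722 to 1.39), and at 46.9 and 67.2 CPM in male cells, a ratio of 1.43 (1.12 to 1.83). The difference between these *Hdac2* ratios was not tested. *Cic* gave 0.973 (0.677 to 1.39) in female and 0.845 (0.643 to 1.10) in male cells, and *Atxn1* 1.04 in female and 1.05 in male cells.

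The *Hdac2* and *Hdac1* ratios were lower in deeper cells. In cells of 2000 to under 5000 UMIs *Hdac2* was at 39.0 CPM in 247 control cells and 115.2 CPM in 71 knockout cells, a ratio of 2.95 (1.78 to 4.87). A single knockout cell held 9 of the 32 UMIs behind it, and without that cell the ratio was 2.15 (1.22 to 3.71). The *Hdac2* ratio was 1.32 (1.03 to 1.70) in cells of 5000 to under 10000 UMIs and 0.927 (0.650 to 1.31) in cells of at least 10000 UMIs. *Hdac1* ran from 1.88 (0.956 to 3.59) through 1.56 (1.18 to 2.05) to 1.13 (0.677 to 1.87) over the same ranges. *Cic* showed no such order, at 0.854, 0.970 and, in the deepest cells, 0.659 (0.443 to 0.961), where the control held 74.2 CPM and the knockout 48.9 CPM. *Atxn1* stayed between 1.02 and 1.17. The part of depth in the genotype ratios was not tested further.

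**Figure D2:**
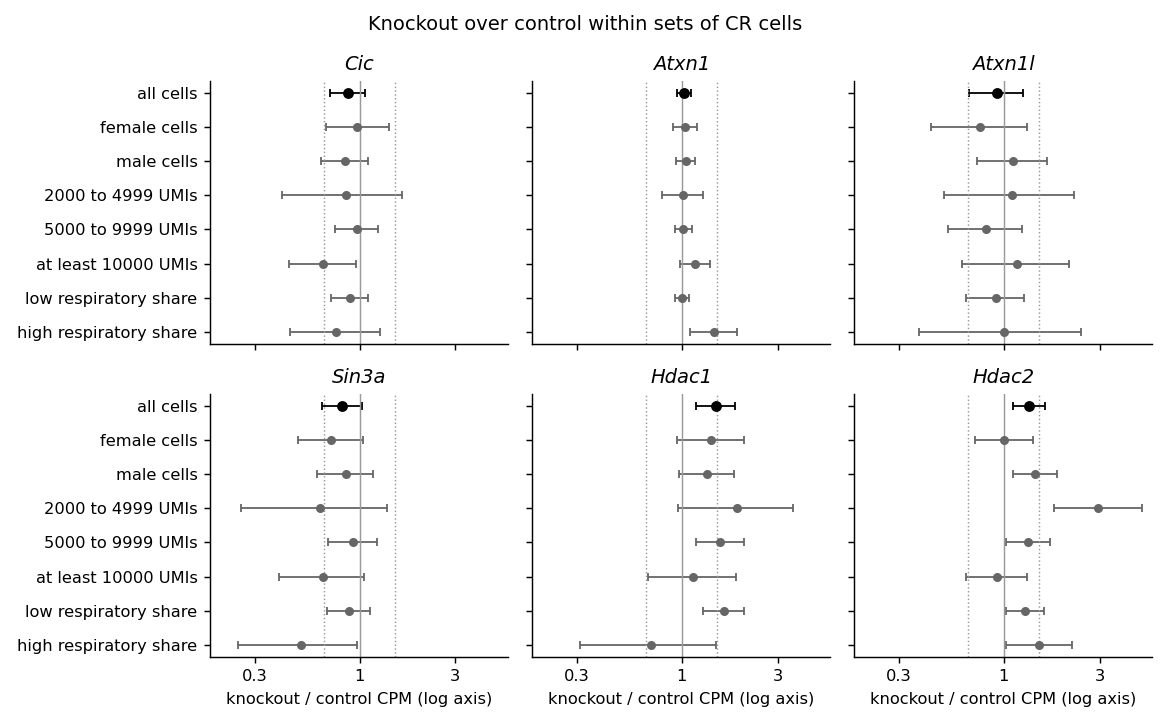
Knockout over control ratio of CPM (log axis) for each member, over all CR cells (black) and within sets of cells by sex, by UMIs per cell and by share of respiratory chain UMIs (grey). Bars are exact 95% intervals for counting error, the solid line is 1 and the dotted lines are 1.5 and 1 over 1.5. *Hdac2* runs from 2.95 in the shallowest to 0.927 in the deepest cells, and *Atxn1* lies between 1.00 and 1.17 in all sets but the cells with a high respiratory share.

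The members were also compared between CR cells with many and few UMIs of nuclear respiratory chain genes, a split in which 24.8% of the genes tested in the control were called higher and 28.4% lower. At least 2% of UMIs came from 98 such genes in 78 control and 29 knockout cells, a range of a score and not a cell type, with 52 and 20 cells between 1.5% and 2.5%. *Atxn1* was at 163.6 CPM in the high and 326.7 CPM in the low control cells, a ratio of 0.501 (0.420 to 0.593), and at 235.7 and 327.7 CPM in the knockout, a ratio of 0.719 (0.574 to 0.893). *Hdac2* went the other way, at 82.9 against 44.1 CPM in the control, a ratio of 1.88 (1.43 to 2.44). In the knockout it was at 124.2 against 56.5 CPM, a ratio of 2.20 (1.55 to 3.07). The single knockout cell of under 5000 UMIs described above held 9 of the 49 *Hdac2* UMIs of the high knockout cells. The ratio without that cell was not computed. *Hdac1* was at 1.14 (0.755 to 1.66) in control cells and 0.497 (0.232 to 0.945) in knockout cells, where the high cells held 10 UMIs. *Cic*, *Atxn1l* and *Sin3a* had intervals that held 1 in both libraries, with *Cic* at 1.28 (0.968 to 1.68) and 1.10 (0.666 to 1.75).

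Of the 6 members tested in the control 1 was called higher and 1 lower, where 24.8% and 28.4% of 8304 genes were. In the knockout 1 of 5 was called higher (*Hdac2*) and 1 lower (*Hdac1*), where 22.1% and 27.7% of 5226 genes were. Differences of this size were thus common among all genes in this split. The cells with a high share were also deeper, with a median of 13556 against 6065 UMIs in control cells and 14508 against 6410 in knockout cells. Among cells of at least 10000 UMIs the control ratios were 0.483 (0.385 to 0.604) for *Atxn1*, 1.67 (1.09 to 2.60) for *Hdac2* and 1.84 (1.10 to 3.20) for *Sin3a*. In the knockout these were 0.773 (0.582 to 1.02), 3.12 (1.63 to 6.39) and 0.987 (0.412 to 2.35). Between the genotypes, *Atxn1* was at 1.00 (0.921 to 1.09) in the cells with a low share and 1.44 (1.10 to 1.88) in those with a high share. *Sin3a*, with 12 UMIs in the knockout cells with a high share, was at 0.512 (0.249 to 0.971) there, and *Hdac1* was at 0.707 (0.310 to 1.47).

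Other deacetylases and SIN3 subunits were also called in this split. Over all genes tested 24.8% were called higher and 28.4% lower in the control, and 22.1% and 27.7% in the knockout. Whether the counts of these lists differ from such shares was not tested. *Hdac4*, *Hdac5*, *Hdac7*, *Hdac8* and *Hdac9*, named after their values were seen, were the 5 of 8 tested deacetylases called lower in the high control cells (0.380 to 0.635). The same 5, of 6 tested, were called lower in the knockout (0.349 to 0.658). Of the other SIN3 subunits, 7 of 15 were called higher and 2 lower in the control and 4 of 11 higher and 2 lower in the knockout. *Sap18*, a small SIN3-associated subunit named after its value was seen, was at 4.71 in both libraries, the highest ratio of that list.

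**Figure D3:**
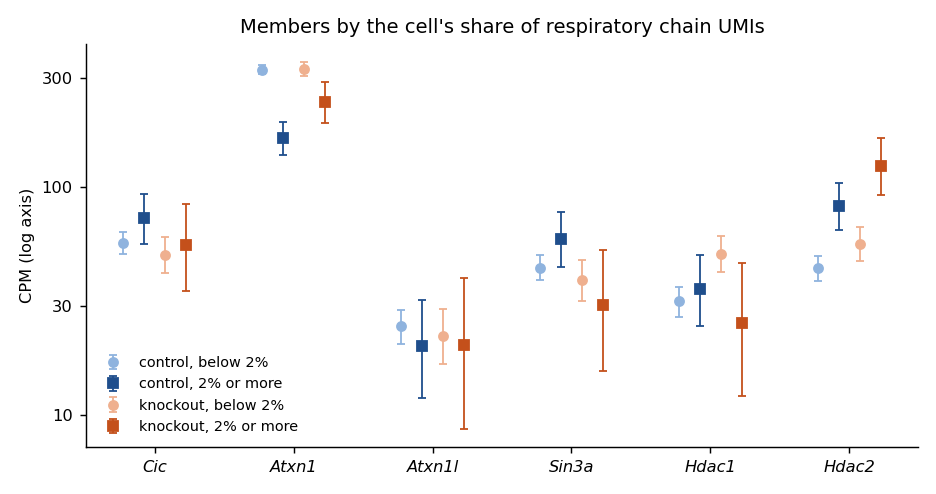
Level of each member in CPM (log axis) in CR cells with under 2% (circles) and at least 2% (squares) of UMIs from respiratory chain genes, for the control and knockout libraries. Bars are exact 95% Poisson intervals. *Atxn1* is lower and *Hdac2* higher in the cells with the high share in each library.

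Whether the members differed between knockout cells that did and did not show *Etv4* or *Etv5* RNA was examined next. At least 1 UMI of either gene was found in 87 control cells (8.67%, 7.01 to 10.6) and 162 knockout cells (41.5%, 36.6 to 46.6), and in 2.89% and 20% after each cell was reduced to 2000 UMIs. In droplets the shares were 0.0310% and 0.363%. The 162 knockout cells had a median of 7266 UMIs, and the other 228 had 6210. Since a UMI is found more easily in a deep cell, absence of an *Etv* UMI does not show absence of the RNA.

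*Cic* was at 43.1 CPM (32.3 to 56.4; 53 UMIs) in the knockout cells with an *Etv* UMI and 57.9 CPM (46.5 to 71.2; 89 UMIs) in those without, a ratio of 0.745 (0.520 to 1.06). The value did not fall step by step with *Etv* UMIs. In the 103 cells with 1 or 2 of them *Cic* was at 32.9 CPM (21.1 to 49.0), and in the 59 cells with 3 or more it was at 58.1 CPM (38.9 to 83.4), the level of the cells without. A single cell with 3 or more *Etv* UMIs held 8 of the 29 *Cic* UMIs of its set, and leaving out the top cell of each set gave an overall ratio of 0.661. In control cells *Cic* was at 58.4 CPM with and 59.0 CPM without an *Etv* UMI, a ratio of 0.990 (0.692 to 1.38). With *Etv5* alone as the marker the knockout ratio was 1.02.

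In summed UMIs *Atxn1* was higher in the cells with an *Etv* UMI in both libraries, and the difference between the libraries was not tested. It was at 346.8 CPM (314.6 to 381.3) with and 288.8 CPM (262.5 to 316.9) without in the knockout, a ratio of 1.20 (1.05 to 1.37). In the control it was at 358.0 and 298.6 CPM, a ratio of 1.20 (1.04 to 1.37). Of all genes tested, 16.1% had a higher ratio in the knockout split and 17.0% in the control split. The knockout ratio was 1.28 (0.825 to 1.95) in cells of 2000 to under 5000 UMIs, 1.32 (1.12 to 1.57) in those of 5000 to under 10000 UMIs and 0.998 (0.755 to 1.32) in those of at least 10000 UMIs. It was 1.35 (1.10 to 1.65) in female and 1.15 (0.946 to 1.38) in male cells. With *Etv4* alone as the marker the knockout ratio was 1.11, and with *Etv5* alone it was 1.14. Within cells with an *Etv* UMI the knockout over control ratio was 0.969 (0.825 to 1.14), and within cells without it was 0.967 (0.870 to 1.07). After a draw of 2000 UMIs per cell, the variance of *Atxn1* UMIs over cells was 1.70 times the mean in control and 1.37 times in knockout cells. Cells thus varied more than the counting intervals cover, and intervals with that spread were not computed.

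*Atxn1l*, the paralog, had too few UMIs for a call. It was at 14.7 CPM (18 UMIs) in knockout cells with an *Etv* UMI and 28.0 CPM (43 UMIs) in those without, a ratio of 0.524 (0.284 to 0.928). The share of cells with a UMI was 11.1% (6.72 to 17.0) and 14.5% (10.2 to 19.7), and the ratio of the mean over cells was 0.827. By depth the ratio went from 3.21 (0.815 to 14.9) in the shallowest cells to 0.158 (0.0295 to 0.551) in the deepest. In the control the ratio was 0.797 (0.414 to 1.41).

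*Sin3a* was at 30.9 and 43.6 CPM in knockout cells with and without an *Etv* UMI, a ratio of 0.710 (0.464 to 1.07), against 1.00 (0.668 to 1.46) in the control. *Hdac1* was at 52.1 and 43.6 CPM, a ratio of 1.20 (0.835 to 1.71), against 0.875 (0.516 to 1.40) in the control. *Hdac2* was at 55.4 and 74.8 CPM, a ratio of 0.740 (0.540 to 1.01), against 0.770 (0.495 to 1.15) in the control. In the knockout cells of 2000 to under 5000 UMIs *Hdac2* had 4 UMIs with and 28 without an *Etv* UMI, and in the deepest cells its ratio was 1.02 (0.569 to 1.86). All of these intervals except that of the shallow *Hdac2* cells, 0.262 (0.0667 to 0.748), reach 1. A single cell held 9 of the 28 *Hdac2* UMIs of the shallow cells without an *Etv* UMI. The ratio without that cell was not computed, so this exception may rest on it.

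Of the 5 members tested in the knockout split 0 were called, where 3.02% of 5226 genes were called higher and 1.95% lower. Of the 6 tested in the control split 0 were called, where 3.07% of 8304 genes were called higher and 7.85% lower. The tested members had a median ratio of 0.745 in the knockout and 0.933 in the control, beside 1.01 and 0.988 over all genes.

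**Figure D4:**
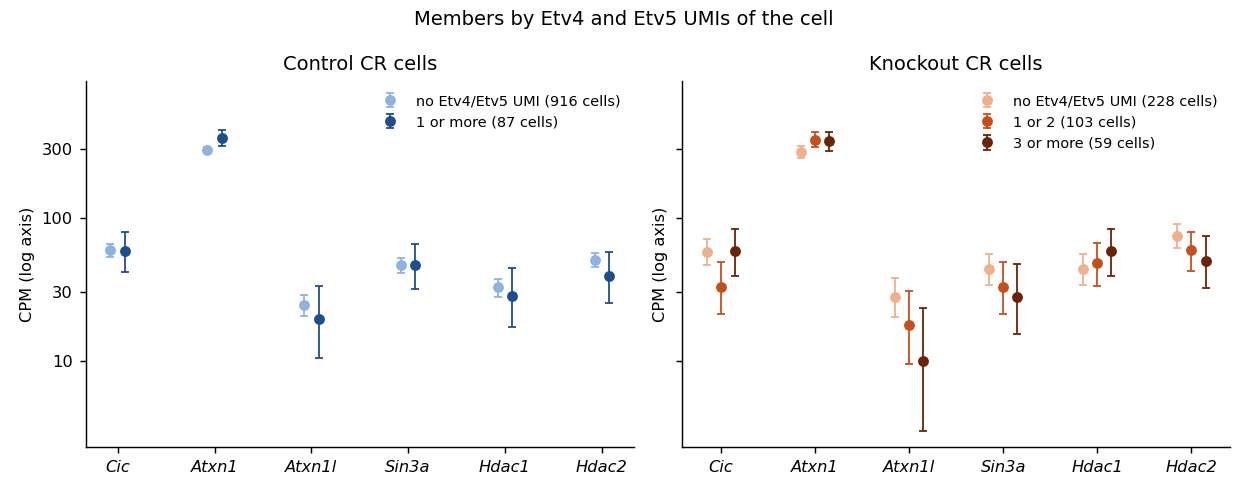
Level of each member in CPM (log axis) in CR cells grouped by their UMIs of *Etv4* and *Etv5*, with control cells on the left and knockout cells on the right. Bars are exact 95% Poisson intervals. *Atxn1* is slightly higher with an *Etv* UMI in both libraries, and knockout *Cic* is lowest in the middle group of 103 cells.

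Co-detection of the members in single cells was sparse. A UMI of *Cic* together with one of *Atxn1* or *Atxn1l* was seen in 226 control cells (22.5%, 20.0 to 25.2) and 82 knockout cells (21.0%, 17.1 to 25.4). None of the 6 members was seen in 123 control cells (12.3%) and 45 knockout cells (11.5%). In 1 draw of 2000 UMIs per cell, *Cic* and *Atxn1* shared 40 control cells and 24 knockout cells. The product of their shares in that draw gives 36.8 and 19.0 cells, and the difference was not tested. That draw held *Cic* in 9.97% of control and 11.5% of knockout cells, where the averages over all draws were 9.89% and 8.75%.

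Among commonly listed capicua target genes, 9 of 17 had at least 100 UMIs, 5 of these were called higher in the knockout and 0 lower, where 2.73% and 1.66% of all genes tested were. The median ratio of the 9 was 1.73. The limit of 100 UMIs is on the sum over both libraries, and *Etv4* passed it with 13 control and 196 knockout UMIs. *Shc3*, at 0.757 CPM in control cells, also passed through the knockout. Genes that pass in this way can only be called higher, so the 5 called and the median are partly set by the filter. *Etv4* was at 1.97 CPM in control and 70.9 CPM in knockout cells, a ratio of 36.0 (20.6 to 68.8), and *Etv5* at 15 and 70.9 CPM, a ratio of 4.73 (3.69 to 6.08). *Shc3*, an adaptor of receptor signalling, was at 0.757 and 35.4 CPM (46.8, 19.4 to 147.3). The secreted neuropeptide precursor *Vgf* was at 16.1 and 64.0 CPM (3.99, 3.12 to 5.12). *Spred1*, an inhibitor of RAS and MAPK signalling, was at 32.0 and 55.3 CPM (1.73, 1.40 to 2.14). *Etv4*, *Etv5* and *Vgf* were named by the study from these libraries, so their direction is not independent evidence. The list itself was chosen with earlier results of these data known. Its counts of called genes, here and in the *Etv* splits, are therefore not independent evidence either, with *Shc3* and *Spred1* included. The 3 listed targets with the most UMIs were not called. *Spry2*, a feedback inhibitor of receptor tyrosine kinases, was at 1.01 (0.852 to 1.20), *Spred2* at 1.11 (0.978 to 1.25) and the phosphatase gene *Ptpn9* at 1.22 (1.03 to 1.44). The windows of *Spry2* and *Ptpn9* hold a capicua octamer, and that of *Spred2* holds none. Of the targets called higher, the windows of *Etv5* and *Spred1* hold none, and *Etv4*, *Shc3* and *Vgf* had no promoter entry.

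Within the knockout, *Spred1* was 2.11 times (1.5 to 2.98) and *Vgf* 2.57 times (1.86 to 3.58) higher in cells with an *Etv* UMI. These were the 2 targets called of the 5 tested that did not define the split, where 3.02% of 5226 genes were called higher. In the control split *Spred1* was the 1 target called of 6, at 1.65 (1.10 to 2.40), where 3.07% of 8304 genes were called higher.

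Outside the targets, no listed gene of the repression machinery passed the threshold between the genotypes. Over all genes tested only 2.73% were called higher and 1.66% lower, so 0 called does not set a list of this size apart. Of the other SIN3 complex subunits 0 of 15 were called, with a median ratio of 0.997. *Arid4b*, *Ogt* and *Morf4l1*, the subunits with the most UMIs, were at 0.931 (0.862 to 1.01), 1.01 (0.928 to 1.10) and 0.977 (0.902 to 1.06). *Rbbp4*, a histone chaperone shared by SIN3 and NuRD and named after its value was seen, was the highest at 1.29 (1.11 to 1.48). Of the subunits of NuRD, CoREST and NCoR, the other corepressors that use class I deacetylases, 0 of 18 were called, with a median of 0.971. *Chd3* was at 1.11, *Chd4* at 0.962 and *Ncor1* at 0.975. Of the other deacetylases 0 of 8 were called, with a median of 1.03. *Hdac4* was at 0.844 (0.734 to 0.968), *Hdac8* at 1.04 and *Hdac11* at 1.11. *Hdac9*, likewise named after its value was seen, had the lowest ratio of that list, 0.681 (0.550 to 0.838), close to the lower threshold. As point values, *Hdac1* and *Hdac2*, at 1.47 and 1.34, lay above the range of the other tested deacetylases, 0.681 to 1.19. Their intervals, 1.18 to 1.84 and 1.11 to 1.61, both hold 1.19, and the difference from the other deacetylases was not tested.

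Regulators of capicua protein, which include the MAPK genes and the 14-3-3 genes whose products bind phosphorylated capicua, had 0 of 15 called and a median of 0.976. *Ywhae*, *Ywhag* and *Ywhaz*, 14-3-3 genes, were at 1.01, 0.962 and 0.976. Partners and regulators of ataxin-1 had 0 of 6 called and a median of 1.00. Both counts stand beside 2.73% called higher and 1.66% lower over all genes tested, and do not set these lists apart. *Pum2*, whose product binds *Atxn1* RNA, was at 0.856 (0.744 to 0.983). *Rora*, a nuclear receptor gene, was at 1.36 (1.29 to 1.43).

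In the knockout *Etv* split, 0 SIN3, 0 NuRD, CoREST or NCoR, 0 deacetylase and 0 ataxin-1 genes were called. Over all genes tested in that split 3.02% were called higher and 1.95% lower. A single regulator, *Ywhah*, a 14-3-3 gene named after its value was seen, was called higher at 1.51 (1.21 to 1.88). In the control split *Sinhcaf* (0.576), *Mta2* (0.518), *Mbd2* (0.635) and *Gps2* (0.579) were called lower and *Chd5* (1.55) higher, likewise named after their values were seen. In that split 7.85% of all genes tested were called lower and 3.07% higher. Each of those called lower had 29 or fewer UMIs in the 87 cells with an *Etv* UMI.

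**Figure D5:**
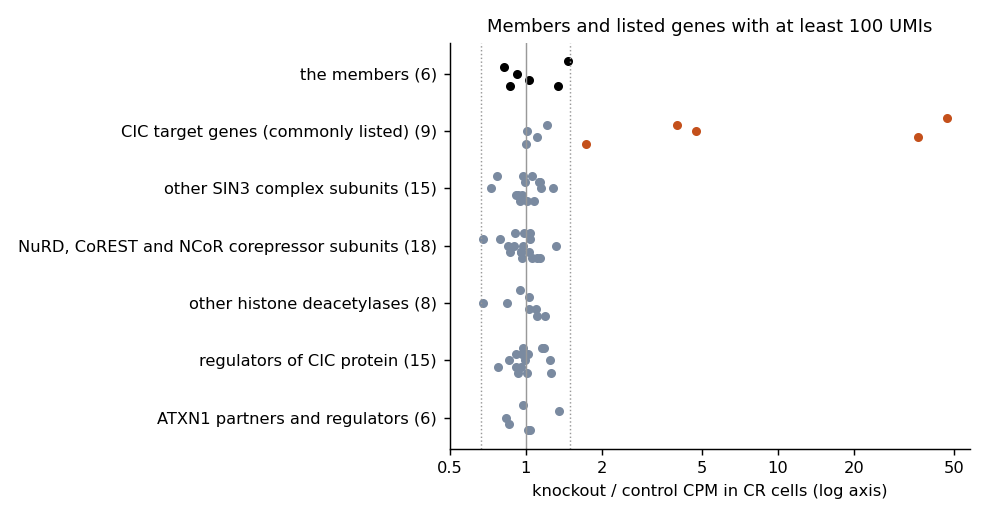
Knockout over control ratio of CPM in CR cells (log axis) for the 6 members (black) and for genes of 6 lists with at least 100 UMIs, 1 point per gene, with the number of genes in brackets. Orange points passed 1.5, and dotted lines mark 1.5 and 1 over 1.5. The 5 orange points are capicua targets, and the members and the other lists lie between the dotted lines.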

How the data were processed

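Single-cell libraries of sorted hippocampal CR cells were made with the 10x 3′ v3.1 chemistry, 1 library per genotype. The authors deposited UMI counts per gene and barcode for all barcodes, without normalization or cell calling. The matrix header names Cell Ranger 4, the submitters' processing notes name Cell Ranger 8.0.1 and mm39, the paper's methods name another version with mm10, and which of them made the matrices was not settled. Gene positions were looked up by Ensembl identifier in GENCODE M21 (GRCm38). Whether intronic reads were counted is not given in the sources used here.

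UMIs were summed over cells and divided by the UMIs outside genes whose symbols start with mt-, Rpl, Rps or Mrp (192 genes, which also takes out *Rps6ka1*, *Rps6ka2* and *Rps6ka3* of the regulator list). Intervals are exact, Poisson for CPM, Clopper-Pearson for shares and conditional binomial for ratios, at 95%. They take UMIs as independent molecules and do not cover variation between animals, cells or libraries. Beyond the limits stated with the results, cells were not filtered, and doublets were not called. The 1% of cells with the most UMIs were left out as an alternative. Interval and thinning code was tested on simulated data. Named genes were all members and, of each list, every gene called between genotypes and the 3 with the most UMIs. Others are marked as named after their values were seen. The genes most like *Cic* across cells and 1 gene of the ataxin-1 list are not reported here. The members and lists were chosen with earlier results of these data known. Python 3.11.15, numpy 2.4.6 and scipy 1.17.1 were used.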

Additional observations from a re-analysis of the deposited data

How the results depend on the processing

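No paired analysis was possible because each genotype had 1 library. Each member's genotype ratio was recomputed under 15 alternatives (other scalings, cell limits, thinning, free RNA taken off, groups of cells left out) and each *Etv* ratio under 19. The mean over all thinning draws and leaving out the cell with the most UMIs of the gene were chosen after seeing the data. The ratio crossed 1 for the *Cic* and *Atxn1l* genotype ratios (1 alternative each, at 1.23 and 1.00) and, for the *Etv* ratios, for *Cic* (1.02) and *Hdac1* (0.863) with *Etv5* as the only marker and for *Atxn1l* after thinning. It crossed 1 for no other result. Genotype ratios ranged from 0.831 to 1.23 for *Cic*, 1.00 to 1.12 for *Atxn1*, 0.867 to 1.00 for *Atxn1l*, 0.758 to 0.885 for *Sin3a*, 1.43 to 1.62 for *Hdac1* and 1.21 to 1.52 for *Hdac2*. A single draw of 2000 UMIs per cell moved the *Cic* genotype ratio to 1.23, the *Atxn1* *Etv* ratio to 1.49 and the *Atxn1l* *Etv* ratio to 1.03. Calling the *Etv* UMI after that draw moved *Atxn1* to 1.45 and *Hdac1* to 2.10. The draw keeps fewer UMIs, and with the mean over all draws these ratios were 0.938, 1.21, 0.835 and, for *Hdac1* with the set as first called, 1.10. Over all alternatives the *Etv* ratios ranged from 0.661 to 1.02 for *Cic*, 1.11 to 1.49 for *Atxn1* and 0.487 to 1.03 for *Atxn1l*. They ranged from 0.693 to 0.831 for *Sin3a*, 0.863 to 2.10 for *Hdac1* and 0.605 to 0.941 for *Hdac2*. With 61 knockout UMIs of *Atxn1l* and 142 of *Cic*, differences smaller than the intervals could not be seen.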
